A study of Mus musculus with 4 samples.

Results

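Chemokines are small secreted proteins that direct leukocyte migration by binding receptors coupled to G proteins, and their names follow the spacing of their conserved cysteines (CC, CXC, CX3C and C). Inflammatory chemokines are induced in injured tissue and draw in monocytes, neutrophils and T cells, homeostatic chemokines position cells in resting tissue, and atypical receptors bind chemokines without classical G protein signalling and clear them. In steatohepatitis, recruitment of monocytes through Ccr2 is a well known route by which the liver gains inflammatory macrophages.

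The genes described here are the chemokines and chemokine receptors of the mouse, chosen by symbol (Ccl, Cxcl, Cx3cl and Xcl ligands, the matching receptors, and Ackr genes), without Cxcl9, Cxcl10, Cxcl11 and Cxcr3. They fill 58 of the 24138 rows of the deposited table and carry 54 symbols, of which 33 are ligands, 17 receptors and 4 atypical receptors. Ccl27b has 4 rows and Ccl19 has 2, some of them on unplaced sequences of chromosome 4. The samples are whole-tissue RNA from the livers of 4 mice (C57BL/6J, male, age 18 weeks), each given the FAT-MASH diet, which models metabolic dysfunction-associated steatohepatitis (MASH), and treated with resolvin D1 (RvD1), a lipid mediator made from docosahexaenoic acid. Diet and RvD1 are common to every animal, and livers on diet alone or without either were not analysed here. The data therefore give the level of each gene in treated animals and its spread between them, and hold no comparison or test between groups. The series asks, per its title, about cell crosstalk in the action of RvD1 in MASH.

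Levels are in FPKM, fragments scaled to transcript length in kilobases and to library size. Genes can be compared in this unit only roughly, because failed estimates and exons shared with other genes, given below, are not corrected by it. Values after ± are SDs over the 4 livers (n = 4) throughout. The summed FPKM of a library lay between 516816 and 570681, and the depth was estimated at 18.8 to 20.1 M fragments (M, mega). At that depth 1 fragment from a 1 kb transcript adds 0.0498 to 0.0531 FPKM. Hepatocyte genes such as Apoa1 (12970 FPKM) dominated, while Alb, a major hepatocyte transcript, was listed at 0 in all 4 livers and Serpina1a in livers 3 and 4, so a listed 0 in this table can be a failed estimate. For that reason a chemokine gene is described below only as listed at 0, and its value in each liver is given where some livers are at 0. In bulk tissue, fewer cells of a type and less RNA per cell cannot be told apart.

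A gene was called expressed at a mean of at least 1 FPKM. By this measure 20 of the 58 rows were expressed, against 43.7% of all rows of the table, and they comprised 14 ligands, 4 receptors and 2 atypical receptors (Ackr1 and Ackr2). A further 17 rows had a mean from 0.1 to 1 FPKM, 12 were above 0 but lower, and 9 were listed at 0 in every liver. Just inside the limit was Ackr2 (1.09 FPKM) and just outside it Xcl1 (0.943 FPKM). The median level of the 20 was 2.06 FPKM, against 7.83 FPKM over all 10541 expressed genes. Only 7 of the 20 reached a mean of 5 FPKM, and all 7 were ligands.

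**Figure D1:**
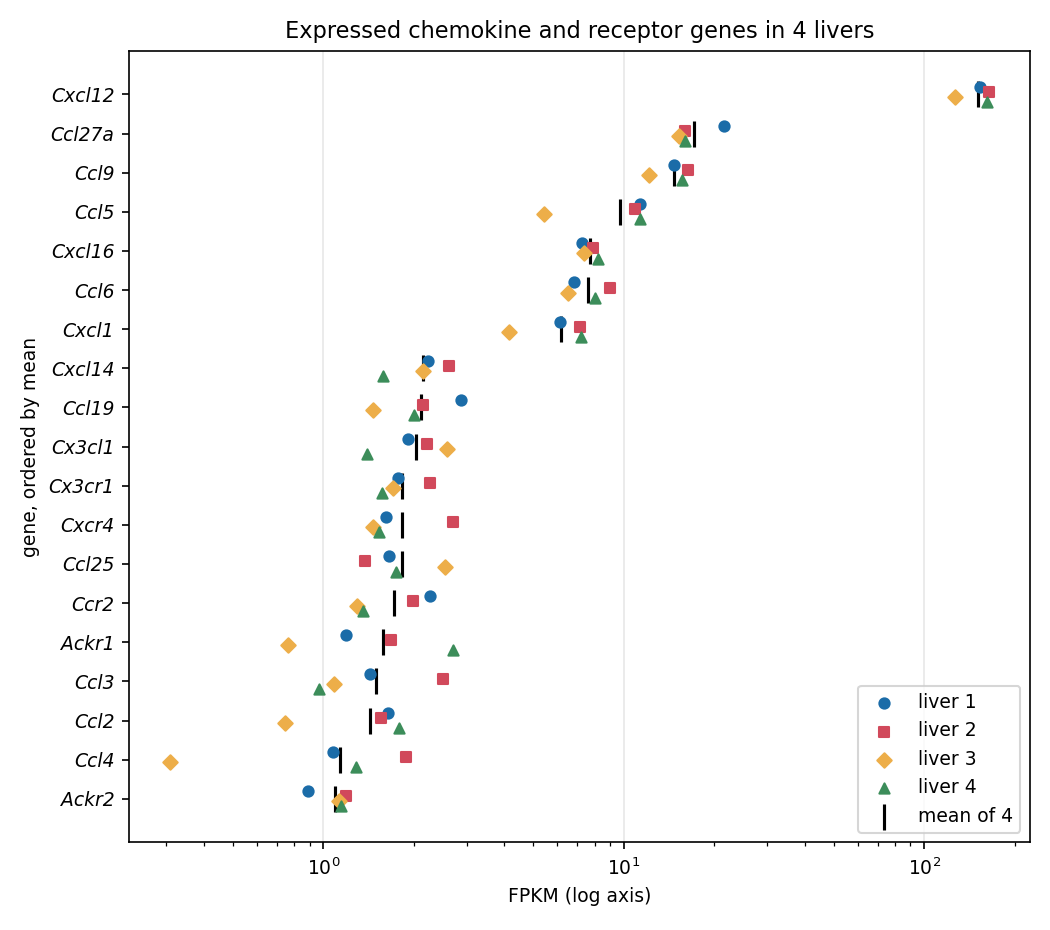
FPKM of 19 of the expressed chemokine and receptor genes (log axis), with a symbol for each liver and a bar for the mean of 4. Cxcl12 stood apart near 151 FPKM, 6 ligands lay between 6.15 and 17.2 FPKM, and the other 12 genes lay at or below 2.14 FPKM.

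Cxcl12, the homeostatic chemokine that holds haematopoietic and other cells in place through Cxcr4, was by far the most abundant member. Its values were 153, 164, 126 and 161 FPKM in livers 1 to 4, with a mean of 151 ± 17.2 FPKM. Liver 3 was the lowest, and the highest liver exceeded it 1.30-fold. The gene lies on chromosome 6, 117168535 to 117181368 (mm10). Its mean was 8.80-fold that of the next gene in order, and it made up 65.6 ± 1.00% of the summed FPKM of the ligand rows described here, which leave out Cxcl9, Cxcl10, Cxcl11 and the platelet chemokines. This share was nearly constant, from 64.3% to 66.7%, although liver 2 had a ligand sum of 250.1 FPKM and liver 3 one of 192 FPKM.

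The receptors of Cxcl12 were far lower. Cxcr4, its signalling receptor, had 1.61, 2.70, 1.46 and 1.53 FPKM in livers 1 to 4, so that liver 2 lay above the other 3 livers, which were close together. Ackr3, an atypical receptor that takes up Cxcl12, had 0.295, 0.574, 0.311 and 0.404 FPKM, again with the highest value in liver 2. Within a liver, Cxcl12 exceeded Cxcr4 by 60.8-fold to 105-fold and Ackr3 by 286-fold to 519-fold.

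Among expressed CC ligands that act on monocytes, macrophages and T cells, Ccl9 and Ccl6 had the smallest spread. Their SDs on the log2(FPKM + 1) scale were 0.18 and 0.19, against a median of 0.16 over all expressed genes. Ccl9 had 14.7, 16.4, 12.1 and 15.7 FPKM in livers 1 to 4 (chromosome 11, 83572917 to 83578636). Ccl6 had 6.81, 8.98, 6.50 and 8.03 FPKM (chromosome 11, 83582061 to 83623693). Both are rodent chemokines that signal through Ccr1, both were lowest in liver 3 and highest in liver 2, and they are neighbours on the chromosome. Their ratio within a liver stayed between 1.83 and 2.16 in favour of Ccl9. Ccr1 itself had 0.227, 0.272, 0.183 and 0.191 FPKM, about 9 to 14 fragments per liver, so Ccl9 exceeded its receptor at least 60.3-fold in each liver. The span given for Ccl6 also holds E230016K23Rik, a separate row of the table.

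The proximal promoters of Ccl9 and Ccl6 (RefSeq, GRCm38.p6, minus strand, 250 bases before to 50 after the start site) are shown because these neighbours kept a near-fixed ratio. Capitals mark matches to the κB consensus, the motif bound by NF-κB, and to TATAAA on either strand.
Ccl9, chr11:83578587-83578886: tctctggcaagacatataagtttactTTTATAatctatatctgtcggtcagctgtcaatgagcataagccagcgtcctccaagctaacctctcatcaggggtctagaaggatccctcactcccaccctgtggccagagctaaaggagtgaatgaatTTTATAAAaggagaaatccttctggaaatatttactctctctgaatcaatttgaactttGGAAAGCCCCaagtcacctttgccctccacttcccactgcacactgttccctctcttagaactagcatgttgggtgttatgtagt
Ccl6, chr11:83593038-83593337: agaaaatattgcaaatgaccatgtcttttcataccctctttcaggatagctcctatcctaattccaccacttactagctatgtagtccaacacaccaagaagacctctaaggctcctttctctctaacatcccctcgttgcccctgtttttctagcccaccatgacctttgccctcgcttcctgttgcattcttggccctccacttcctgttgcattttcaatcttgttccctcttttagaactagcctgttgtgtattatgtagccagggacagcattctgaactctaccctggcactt
The longest run of bases common to the pair was 13. The Ccl9 window held a κB consensus match starting at base -35 from the start site and TATAAA matches at -224, -94 and -92, the last 2 overlapping, whereas the Ccl6 window held no match to either motif.

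Ccl5, which attracts T cells, natural killer cells and monocytes, was well expressed in 3 animals and lower in the other. Its values were 11.3, 10.9, 5.42 and 11.3 FPKM in livers 1 to 4 (chromosome 11, 83525779 to 83530518). Livers 1, 2 and 4 differed by less than 0.5 FPKM and liver 3 lay 2.01-fold below the nearest of them. The estimated number of fragments was 106, 99, 49 and 99. The SD on the log2(FPKM + 1) scale was 0.46, against about 0.14 that counting error alone would give at this depth. The 11 markers of T and natural killer cells, which produce Ccl5, summed to 5.02, 5.43, 4.78 and 2.77 FPKM, with only Nkg7 expressed. The part of these cells in the Ccl5 values was not tested.

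Ccl3 and Ccl4, which are made by activated macrophages and lymphocytes, were low and uneven. Ccl3 had 1.43, 2.49, 1.08 and 0.967 FPKM in livers 1 to 4. Ccl4 had 1.08, 1.89, 0.308 and 1.28 FPKM, a 6.13-fold range, the widest among expressed members. Liver 2 was the highest for both genes, while the lowest was liver 4 for Ccl3 and liver 3 for Ccl4. These values rest on about 16, 27, 12 and 10 fragments for Ccl3 and 10, 17, 3 and 11 for Ccl4.

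Ccr3, the eosinophil receptor, was listed at 0, 0.0226, 0.138 and 0.118 FPKM. Its ligand Ccl24, an eotaxin made by macrophages, had 0.911, 1.20, 0.569 and 0.117 FPKM, a 10.3-fold range in which liver 4, with about 2 fragments, was the lowest. The other eotaxins, Ccl11 and Ccl26, were listed at 0 in all livers, as were Ccl1 and Ccl8. Ccr8 was above 0 in liver 1 alone, at 0.0559 FPKM.

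The monocyte axis was present at low level. Ccr2, the receptor that inflammatory monocytes need to leave the marrow and enter tissue, had 2.26, 1.99, 1.29 and 1.35 FPKM in livers 1 to 4 (mean 1.72 ± 0.476 FPKM, chromosome 9, 124102183 to 124109140). Its main ligand Ccl2 had 1.63, 1.56, 0.743 and 1.78 FPKM (chromosome 11, 82035577 to 82037452). Liver 3 had the lowest value for both, but liver 4 combined the highest Ccl2 with the second lowest Ccr2. The ratio of Ccl2 to Ccr2 was 0.723, 0.783, 0.574 and 1.32, so the ligand exceeded the receptor in liver 4 alone. The other Ccr2 ligands were listed below 1 FPKM in each liver, with Ccl7 at 0.570, 0.202, 0 and 0.109 FPKM and Ccl12 at 0, 0.617, 0 and 0 FPKM. The monocyte marker Ly6c2 was also lowest in liver 3, at 2.66, 2.56, 1.13 and 2.68 FPKM. Of the 4 expressed monocyte markers, Ccr2 among them, 3 were lowest in liver 3. The fourth, Fn1, had 179, 178, 193 and 198 FPKM in livers 1 to 4. The part of monocytes in the low Ccl2 of liver 3 was not tested.

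Among the members that attract neutrophils, Cxcl1 had the highest transcript level. Cxcl1, a ligand of Cxcr2, had 6.13, 7.17, 4.14 and 7.18 FPKM in livers 1 to 4 (chromosome 5, 90891245 to 90893115), with liver 3 lying 1.48-fold below the next. The other Cxcl members of this group were lower. Cxcl2 was listed at 0.197, 0, 0.175 and 0.522 FPKM and Cxcl5 at 0.523, 0.232, 0.139 and 0.237 FPKM. Cxcl3 was above 0 in liver 2 alone, at 0.0625 FPKM, and Cxcl15, a chemokine of lung epithelium, was listed at 0. In the 3 livers with a Cxcl2 value, Cxcl1 exceeded it by 13.8-fold to 31.1-fold. The receptor Cxcr2 had 0.0695, 0.0194, 0.0725 and 0.0589 FPKM, about 1 to 4 fragments, and Cxcr1 was above 0 in liver 1 alone. Of 8 neutrophil markers 3 were expressed, S100a9 (5.44 ± 2.33 FPKM), S100a8 (5.10 ± 1.97 FPKM) and Ngp (1.93 ± 1.14 FPKM), and the other 5 had means from 0.0813 to 0.988 FPKM. The median deviation of the 3 was -0.01, 0.58, 0.11 and -0.83 in livers 1 to 4, so it was highest in liver 2 and lowest in liver 4. Cxcl1 was near-equal in those livers, at 7.17 and 7.18 FPKM. The markers also differed, since S100a8 had 4.22, 7.79, 3.20 and 5.19 FPKM and was lowest in liver 3. The part of neutrophils in the Cxcl1 values was not tested.

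Cxcl1, Cxcl2 and Cxcl3 lie in the same cluster on chromosome 5, with Cxcl15 between Cxcl3 and Cxcl1. They differ in level, and their promoters hold the same κB decamer. The windows from base -110 to base -11 of the start site (RefSeq, GRCm38.p6, plus strand) are shown for comparison, with capitals at matches to the κB consensus and TATAAA.
Cxcl1, chr5:90891135-90891234: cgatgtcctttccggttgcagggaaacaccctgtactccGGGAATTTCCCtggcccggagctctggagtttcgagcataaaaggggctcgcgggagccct
Cxcl2, chr5:90903789-90903888: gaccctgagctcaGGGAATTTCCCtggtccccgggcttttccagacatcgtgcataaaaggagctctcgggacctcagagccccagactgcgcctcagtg
Cxcl3, chr5:90785991-90786090: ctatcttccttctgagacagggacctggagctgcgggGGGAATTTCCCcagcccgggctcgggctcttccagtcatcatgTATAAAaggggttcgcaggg
The capitals at the κB site run over 2 overlapping matches of the consensus. The exact decamer GGGAATTTCC began at base -71 in Cxcl1, -97 in Cxcl2 and -73 in Cxcl3. This decamer was picked because the Cxcl1, Cxcl2 and Cxcl3 promoters share it, so their matches were fixed by the choice. Searched on both strands, it occurred in 29 of 32851 RefSeq promoters of 300 bases (0.0883%). That share describes the decamer and cannot be set against the matches in these 3 genes. The fourth chemokine gene with a match was Ccr3, at -179. It is itself a form of the κB consensus, which was found in 4.51% of all promoters and in 9 of the 47 promoters listed for the members (19.1%), those of Ackr2, Ccl20, Ccl27a, Ccl9, Ccr3, Ccr6, Cxcl1, Cxcl2 and Cxcl3. Promoters were listed for 40 of the 54 symbols. TATAAA was found in 13 of the 47 (27.7%) and in 13.6% of all promoters, and a pair of GAAA repeats 2 bases apart, the core of interferon response elements, in 2 (4.26%) and in 3.44%. A match is a description of the letters and not of binding, and of the 9 κB genes 4 were expressed.

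Homeostatic and lymphoid chemokines other than Cxcl12 were led by Ccl27a. Ccl27a, known as a skin chemokine that acts through Ccr10, was listed at 21.5, 16.0, 15.2 and 16.0 FPKM, with liver 1 lying 1.34-fold above 3 near-equal livers. Its span (chromosome 4, 41760443 to 41774176) is the same as that given for Il11ra1, the receptor gene of interleukin 11, which had 10.4 to 11.8 FPKM. Only 0.3% of the Ccl27a exon bases in GENCODE are also exon bases of Il11ra1. Ccr10 had at most 0.0628 FPKM and was listed at 0 in liver 2. The near-identical Ccl27b had 0.121, 0, 0 and 0.236 FPKM in its highest row, and its other 3 rows were listed at 0.

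Ccl19, which guides dendritic cells and T cells through Ccr7, had 2.86, 2.14, 1.47 and 2.01 FPKM. It was highest in liver 1 and lowest in liver 3. Ccr7 had 1.13, 0.696, 0.961 and 0.519 FPKM, with its lowest value in liver 4, and Ccl19 exceeded it in all 4 livers by 1.53-fold to 3.87-fold. Ccl25, the ligand of the gut-homing receptor Ccr9, had 1.65, 1.38, 2.54 and 1.74 FPKM, and liver 3 was its highest. Ccr9 had 0.0591, 0.0774, 0.184 and 0.142 FPKM, likewise with its highest value in liver 3, and shares 18.8% of its exon bases with other genes in GENCODE. Cxcl14, an epithelial chemokine without a settled receptor, had 2.22, 2.62, 2.14 and 1.58 FPKM and was lowest in liver 4.

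Ccl17 and Ccl22, dendritic cell and macrophage products that act on Ccr4, both had their highest value in liver 3. Ccl22 had 0.485, 0.410, 0.790 and 0.360 FPKM, and Ccl17 was listed at 0.670, 0.584, 1.42 and 0 FPKM, on about 4, 4, 9 and 0 fragments. Ccr4 did not exceed 0.0191 FPKM. The B cell axis was near the limit, with Cxcl13 at 0 to 0.154 FPKM and Cxcr5 at 0.0373 to 0.147 FPKM. Ccl20, the ligand of Ccr6, was listed at 0 in 3 livers and at 0.617 FPKM, about 14 fragments, in liver 4, the liver in which Ccr6 was listed at 0.

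The transmembrane chemokines were expressed in every liver. Cxcl16, which also serves as a scavenger receptor for oxidised lipoprotein, was the steadiest expressed member, at 7.24, 7.91, 7.40 and 8.21 FPKM (chromosome 11, 70454234 to 70466199). Its highest liver was 1.13-fold its lowest, and its SD on the log2 scale was 0.07. In GENCODE 18.3% of its exon bases are also exon bases of Zmynd15 on the other strand. Cxcr6, the receptor of resident natural killer and T cells for Cxcl16, had 0.175, 0.214, 0.172 and 0.396 FPKM. Cxcl16 exceeded it by 20.7-fold to 43.0-fold.

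Cx3cl1 and Cx3cr1 were the pair closest to parity. The ligand had 1.91, 2.21, 2.59 and 1.40 FPKM and the receptor, which marks patrolling monocytes and some macrophages, 1.78, 2.27, 1.70 and 1.56 FPKM. The ligand was higher in livers 1 and 3 and the receptor in livers 2 and 4, with ratios from 0.895 to 1.52. Xcl1, a lymphocyte chemokine for cross-presenting dendritic cells, had 1.03, 0.734, 1.04 and 0.970 FPKM on about 4 to 6 fragments per liver. In GENCODE 18.7% of its exon bases are shared with Gm20743 on the other strand. Its receptor Xcr1 had 0.240, 0.235, 0.248 and 0.331 FPKM, and Xcl1 was higher in all 4 livers.

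**Figure D2:**
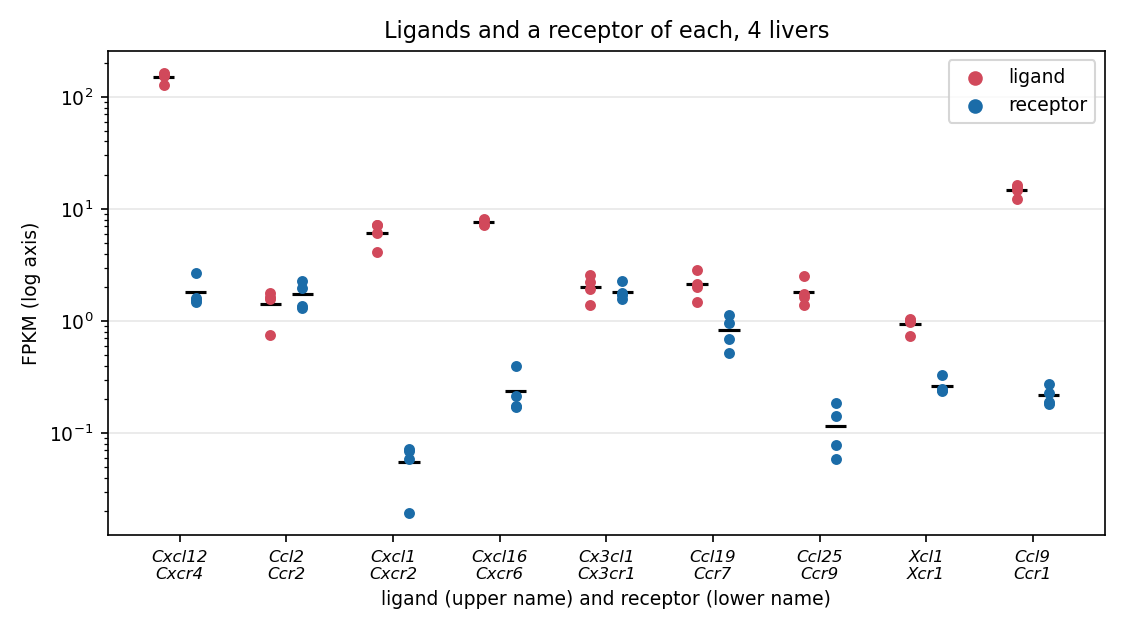
FPKM (log axis) of 9 ligands and of a receptor of each, with a point for each of the 4 livers and a bar for the mean. The ligand lay above the receptor in all 4 livers for 7 pairs, while Ccl2 with Ccr2 and Cx3cl1 with Cx3cr1 overlapped.

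Atypical receptors were led by Ackr1 and Ackr2. Ackr1, the Duffy antigen of venular endothelium and erythroid cells, had 1.19, 1.68, 0.760 and 2.70 FPKM, a 3.55-fold range with liver 4 highest and liver 3 lowest. In GENCODE 25.7% of its exon bases are shared with Cadm3 on the same strand, so part of its value may belong to that gene. Ackr2, which degrades inflammatory CC chemokines, was even, at 0.887, 1.19, 1.13 and 1.15 FPKM. Ackr4, a scavenger of Ccl19 and Ccl25, had 0.578, 0.417, 0.536 and 0.820 FPKM in a span that also holds Acad11. Ackr2 was above Ackr3 in all 4 livers, by 2.07-fold to 3.63-fold.

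In order of mean level, few neighbours were separate. Of the 19 neighbouring pairs among the 20 expressed genes, the ranges over the 4 livers did not overlap in 3, which were Cxcl12 above Ccl27a, Ccl9 above Ccl5, and Cxcl1 above Cxcl14. From Cxcl14 down to Ackr2 each neighbouring pair overlapped, so their order is within the spread between animals.

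Neighbouring genes differed in level. Of the 11 Ccl genes on chromosome 11 between 82035577 and 83664683, 6 were expressed and 3 listed at 0, and liver 3 was the lowest for 5 of the 6 expressed genes (Ccl2, Ccl5, Ccl9, Ccl6 and Ccl4), against 31.4% of all expressed genes and 12 of the 20 members. Of the 6 Cxcl genes described on chromosome 5, Cxcl1 alone was expressed.

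The expressed members had a wider spread between animals than the median gene. The median SD of log2(FPKM + 1) over the 20 was 0.25, from 0.07 for Cxcl16 to 0.48 for Ccl4, against 0.16 over 10541 expressed genes, and 17 of the 20 were above that figure. Without liver 2 the medians were 0.18 and 0.15, and without liver 3 they were 0.19 and 0.14. Among genes of 1 to 5 FPKM the median was 0.26 for 13 members and 0.17 for 4003 genes. From 5 FPKM up it was 0.19 for 7 members and 0.16 for all genes at that level. The highest liver was at least 2-fold the lowest for 5 of the 20 (Ccl5, Ackr1, Ccl3, Ccl2 and Ccl4), against 6.54% of all expressed genes. Among genes of 1 to 5 FPKM it was so for 4 of 13 members, against 12.4%. Without liver 3 the number was 2 of 20, against 3.89% of all expressed genes, and without liver 2 it was 3, against 4.16%. The SD of Ackr2 (0.10) and of Cxcl16 (0.07) was about the size of their approximate counting error (0.10 and 0.07). Ccl19, Ackr1, Ccl3, Ccl2 and Ccl4 had fewer than 30 estimated fragments on average, so their spread is the least certain.

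Liver 2 was mostly high and liver 3 mostly low. Liver 2 held the highest value for 10 of the 20 expressed genes, against 22.0% of all expressed genes, and lay above the gene's mean for 18 of 20, against 45.1%. The exceptions were Ccl27a and Ccl25. It held the lowest value for Ccl25 alone, against 29.9%. Liver 3 held the lowest value for 12 of the 20, against 31.4% of all expressed genes, and lay above the mean for 4 (Cxcl14, Cx3cl1, Ccl25 and Ackr2), against 47.0%. Among members of 1 to 5 FPKM, liver 2 was highest for 7 of 13, against 25.8% of all genes at that level, and liver 3 lowest for 6, against 25.7%. Livers 1 and 4 each held the highest value for 4 members, against 17.9% and 33.3% of all expressed genes.

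The median deviation from the gene mean on the log2(FPKM + 1) scale was 0.00, 0.15, -0.20 and 0.03 for the 20 members in livers 1 to 4. Over all expressed genes it was -0.01, -0.02, -0.01 and 0.04. Without liver 3 the value of liver 2 was 0.07, and without liver 2 that of liver 3 was -0.08. The 14 ligands had medians of 0.02, 0.14, -0.24 and 0.08 in livers 1 to 4, and the 6 receptors and atypical receptors -0.12, 0.18, -0.17 and -0.06, so the signs were the same in livers 2 and 3 and opposite in livers 1 and 4. Since each deviation is taken from the mean of the same animals, a high liver 2 by itself pushes the others down. With median-ratio scaling between the livers, liver 2 was highest for 12 of the 20, against 26.6% of all expressed genes, and liver 4 for 2, against 23.3%. Liver 3 was then lowest for 9, against 29.2%.

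A single liver stood apart from the other 3, by Dixon's ratio at the 95% level, for 3 of the 20 expressed members (Ccl27a, Ccl5 and Cxcr4), against 5.46% of all expressed genes. Over members of at least 0.1 FPKM it did so for 6 of 37, against 5.73%, with Xcr1, Ccl20 and Ccl12 added. Ccl20 and Ccl12 reach that mean through 1 liver and are listed at 0 in the other 3, so they stand apart by construction. The SD of Xcr1 (0.051) was below its approximate counting error (0.065).

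**Figure D3:**
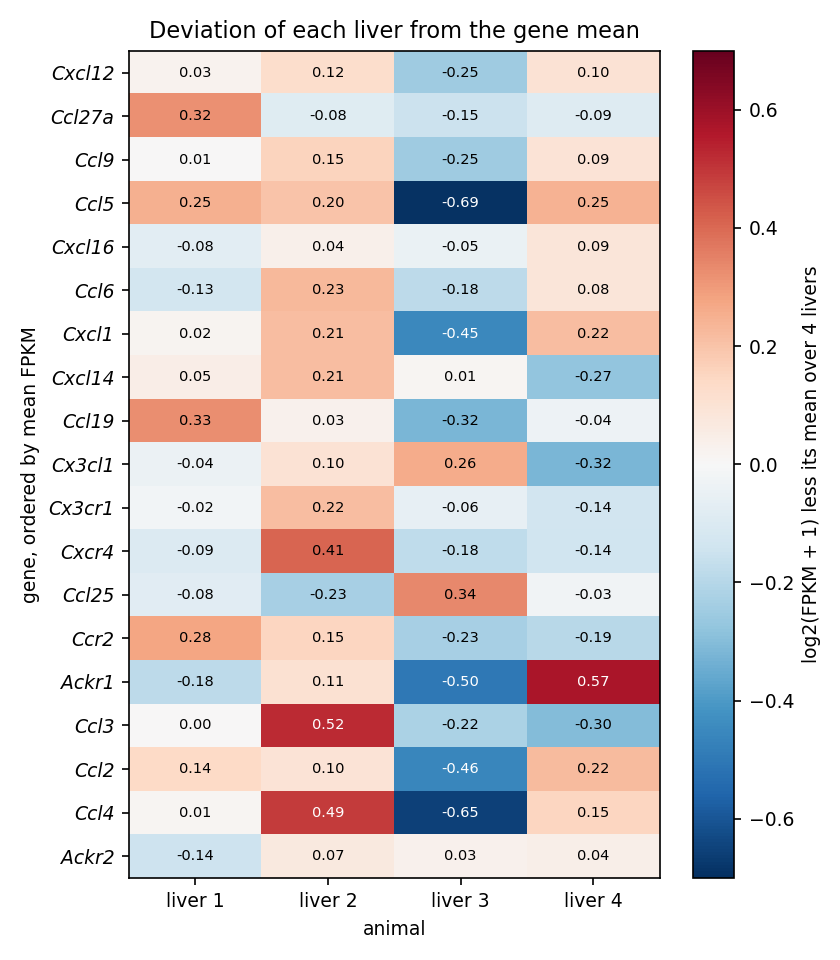
Deviation of each liver from the gene's mean over the 4 livers, on the log2(FPKM + 1) scale, for 19 of the expressed genes in order of mean level. The column of liver 2 is positive for 17 genes and that of liver 3 is negative for 15, with the lowest value, -0.69, for Ccl5 in liver 3.

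**Figure D4:**
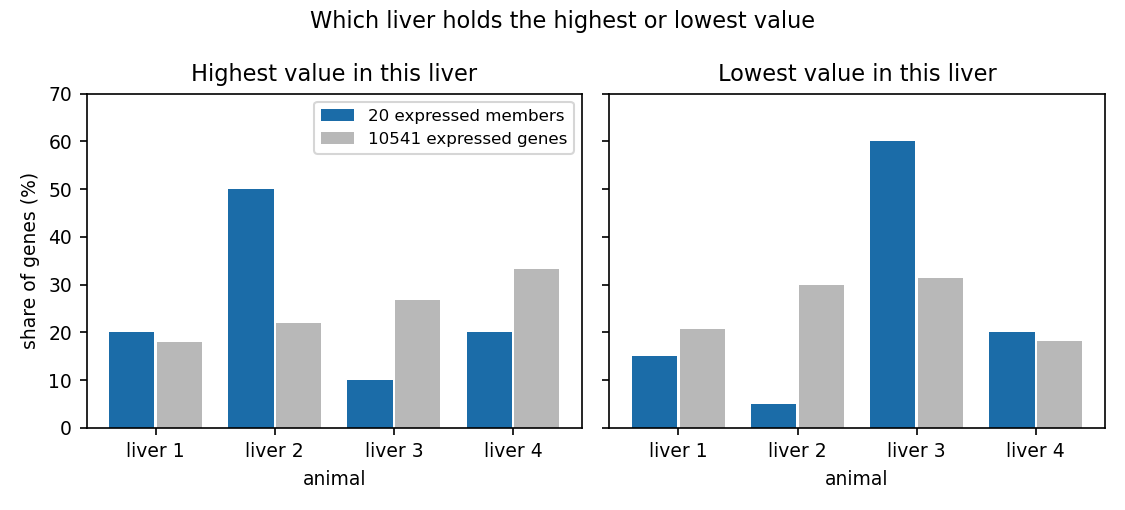
Share of genes (%) whose highest (left) or lowest (right) value of the 4 falls in each liver, for the 20 expressed members and for all 10541 expressed genes. Liver 2 was the highest for 50.0% of the members and liver 3 the lowest for 60.0%, against 22.0% and 31.4% of all expressed genes.

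Markers of cells that make or carry these genes were compared over the same livers. The 9 macrophage markers summed to 298, 426, 304 and 391 FPKM in livers 1 to 4, and all 9 were above their mean in liver 2 (median 0.25). Of the expressed markers of sinusoidal endothelium 6 of 7 (median 0.26), of stellate cells 7 of 8 (0.29) and of neutrophils 3 of 3 (0.58) also lay above their means in liver 2. In liver 3 the medians were -0.17 for macrophages, -0.26 for 5 Kupffer cell markers, -0.27 for 4 monocyte markers, -0.04 for sinusoidal endothelium, -0.10 for stellate cells and 0.11 for neutrophils. In liver 1, where the median of the chemokine members was 0.00, none of the expressed macrophage, Kupffer cell and sinusoidal endothelial markers was above its mean, with medians of -0.18, -0.26 and -0.18. Monocyte (3 of 4) and stellate cell (6 of 8) markers lay mostly above their means there, with medians of 0.24 and 0.05. Monocyte and Kupffer cell markers had medians of 0.12 and 0.13 in liver 2. Kupffer cell markers had their highest median in liver 4 (0.35), and Cdh5, counted among them, is an endothelial gene. B cell and plasma cell, cholangiocyte and hepatocyte markers had medians of 0.15, 0.07 and -0.16 in liver 2 and of 0.09, -0.04 and -0.07 in liver 3. Of the T and natural killer cell markers Nkg7 alone was expressed, and none of the 7 dendritic cell markers was, with Clec9a at 0.796 ± 0.184 FPKM. Ccr2, Ccr7 and Xcr1 are themselves on these lists, no marker other than Alb was listed at 0 in all livers, and the part of these cells in the chemokine values was not tested.

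Other genes of the pathway were read from lists that hold no member. Among 20 genes of receptor signalling 12 were expressed, led by the G protein subunits Gnai2 (83.0 ± 7.80 FPKM) and Gnb1 (33.5 ± 3.76 FPKM), and the arrestin Arrb2 had 8.01 ± 0.304 FPKM. Their median SD was 0.13 and their medians in livers 2 and 3 were -0.01 and 0.03. Rgs1, which dampens chemokine receptor signalling in leukocytes, was lowest in liver 3, at 1.39, 1.86, 0.542 and 1.70 FPKM. The NF-κB response list had 9 of 14 genes expressed, a median SD of 0.14, and medians of -0.03 in both livers 2 and 3. Its adhesion molecule Icam1 was even, at 6.71 ± 0.164 FPKM, and Vcam1 had 6.46, 10.2, 6.67 and 8.13 FPKM. Bcl3 had 8.67, 10.45, 18.5 and 15.6 FPKM, highest in liver 3, and was the only expressed gene of this list with a 2-fold range.

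Relatives of the family outside its symbols were also present. Pf4, the platelet chemokine also known as Cxcl4, had 4.71, 8.54, 4.15 and 8.37 FPKM. The platelet chemokine Ppbp was listed at 0.361, 2.02, 0.275 and 0 FPKM. Gpr182, an endothelial receptor that binds chemokines, had 13.1 ± 2.53 FPKM, and Ccrl2 1.02 ± 0.192 FPKM. Mif, a cytokine that also binds Cxcr4, had 411, 587, 373 and 508 FPKM, and the protease Dpp4, which cleaves Cxcl12 among others, had 24.4 ± 1.80 FPKM. All 5 expressed genes of these 6 lay above their means in liver 2 (median 0.26), and 3 were lowest in liver 3 (median -0.16).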

How the data were processed

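Liver RNA of 4 mice in a single group was sequenced after poly(A) enrichment, per the labels' protocols. The deposited table holds 1 value per gene and liver, taken as FPKM made by the authors, since the submitters' processing notes list STAR 2.7.6a and Cufflinks 2.2.1 with mm10 and the values are neither whole nor summed to a fixed total; its header names no unit. Columns were matched through sample descriptions (0 unmatched). Starts had 1 added, which made 23 member starts equal those of GENCODE vM21 (GRCm38), against 3 as deposited. Whole reads were not recovered. Depth came from genes with a single transcript over 800 bases, as the median between 25 and 75 of FPKM times length less 200 bases, and fragments per member are approximate: FPKM, depth and the longest GENCODE transcript within the listed span, less 200 bases.

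Spread was computed on log2(FPKM + 1), which understates differences of low genes (Python 3.11.15, pandas 2.3.3). No test between groups was run, and alternatives (pseudocount, limits on the mean, median-ratio scaling, each liver left out) were computed. The only test was for outliers: each gene's most extreme liver was compared with Dixon's 95% value, a procedure tested on simulated data. Genes named are members at a mean of at least 0.1 FPKM, with lower ones added, and genes of the pathway and cell marker lists; single genes of those lists were picked after their values were seen. Members and lists were chosen with earlier results of these data known. Replicates are separate animals only as far as the labels number them. Of the expressed genes, 1 is counted in the totals and is not reported here.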

Additional observations from a re-analysis of the deposited data

Results flagged for a closer look

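Among the 37 members averaging 0.1 FPKM or more, 6 had an extreme liver that lay farther from the other 3 than Dixon's 95% value allows, against 5.73% of 13799 genes at that level; chance marks about 1 in 20 genes. Of these, 3 were expressed and have enough fragments to read. Ccl5 was low in liver 3, at 5.42 FPKM, Ccl27a was high in liver 1, at 21.5 FPKM, and Cxcr4 was high in liver 2, at 2.70 FPKM. The others rest on few fragments. Xcr1 was 0.331 FPKM in liver 4 (about 26 fragments), Ccl20 was 0.617 FPKM in liver 4 (about 14 fragments) and Ccl12 was 0.617 FPKM in liver 2 (about 4 fragments). The latter pair was listed at 0 in the remaining livers, so both are apart by construction.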

How the results depend on the processing

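The number of expressed members was 20 with median-ratio scaling and without any single liver, 15 when at least 1 FPKM was required in every liver, 26 at a mean of 0.5 FPKM and 49 with no limit. The median SD was 0.36 with a pseudocount of 0.1 and 0.12 with one of 5, where all expressed genes had 0.19 and 0.11, so the gap between members and all genes nearly closes at the larger pseudocount. It was 0.19 for the 7 members of at least 5 FPKM (all genes 0.16), and 0.18 to 0.28 when a liver was left out. The gap was also smaller without liver 2 (0.18 against 0.15), without liver 3 (0.19 against 0.14) and at 5 FPKM. The number with a 2-fold range was 17 of 37 at a mean of 0.1 FPKM (19.9% of all genes), 1 of 7 at 5 FPKM (2.95%), and 2 to 5 when a liver was left out. The median deviation kept its sign in livers 2 and 3 under every alternative run, from 0.07 (without liver 3) to 0.22 and from -0.26 to -0.08 (without liver 2). At a mean of 0.1 FPKM livers 1 to 4 were highest for 7, 15, 6 and 9 of 37 members (19.9, 23.9, 26.3 and 29.9% of all genes) and lowest for 7, 5, 16 and 9 (20.6, 28.2, 29.3 and 21.9%); at 5 FPKM they were highest for 2, 3, 0 and 2 of 7 (15.5, 19.8, 25 and 39.8%) and lowest for 1, 0, 6 and 0 (21.6, 32.2, 34.8 and 11.3%). Median-ratio scaling made liver 4 highest for 2 and lowest for 7 of 20, against 23.3% and 24.6% of all expressed genes. Counts of lowest livers were added after seeing the data. The genes with a single liver apart numbered 6 with a pseudocount of 5 and with linear values and 7 with a pseudocount of 0.1 and with scaling, the same 6 among them; Ccl20 and Ccl12, at 0 in 3 livers, are apart by construction, and other limits on the mean and left-out livers were not run for this count. Genes under about 30 fragments are limited by depth. No paired analysis was possible because there is a single group.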
